A study of Homo sapiens with 2 samples.

Results

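Exons of 400 bp or more are rare in human genes, and their nucleosome positions were examined here in ARPE-19, an established line of human retinal pigment epithelium. Members were the internal exons of MANE Select transcripts (the single reference transcript agreed for each protein-coding gene, GENCODE 44) on chromosomes 1-22 that are coding over their whole length, measure 400 bp or more and have introns of 500 bp or more on both sides. There were 2347 such exons in 1910 genes, out of 91336 internal coding exons of any length with such introns. Both samples, labelled batch 1 and batch 2, were cells in normal culture and in interphase; chromatin was digested with micrococcal nuclease (MNase) for 5 min at 37 °C and DNA of about 150 bp was sequenced. The design has 1 group, no control arm and 1 deposited list of called positions that does not tell the batches apart, so no spread between cultures could be measured. No expression was measured either, and the identity of the cells could not be checked against marker genes.

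MNase cuts the linker DNA between nucleosomes. Each position in the list was read here as the centre of a protected fragment, which the list itself does not state. An internal exon is recognised by the splicing machinery through its borders: the acceptor (the 3' splice site, at the exon's upstream edge, preceded by a tract of C and T) and the donor (the 5' splice site, at its downstream edge). The typical internal exon is about as long as the DNA wrapped around a nucleosome, and exons are known to carry more nucleosomes than the introns beside them. An exon of 400 bp or more has room for several.

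The acceptor borders below show the sequence at which the members' positions were most frequent. They are the 4 longest exons with a position 51 to 75 bp inside the acceptor, among exons with no 32-base word repeated in the genome and leaving out 1 chromosome, and were picked after the values were seen. Each run holds the last 40 bases of the intron and the first 110 of the exon on the transcribed strand of hg38; capitals mark exon bases 51 to 75.
KMT2A exon 27, chr11:118502358-118502507, plus strand: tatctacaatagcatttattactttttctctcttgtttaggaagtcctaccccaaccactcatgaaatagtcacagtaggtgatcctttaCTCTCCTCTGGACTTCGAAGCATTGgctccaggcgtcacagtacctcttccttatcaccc
AKAP13 exon 7, chr15:85578890-85579039, plus strand: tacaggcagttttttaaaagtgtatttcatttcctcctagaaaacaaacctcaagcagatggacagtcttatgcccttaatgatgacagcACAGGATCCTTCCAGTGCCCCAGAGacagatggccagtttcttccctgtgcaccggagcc
KMT2A exon 3, chr11:118471622-118471771, plus strand: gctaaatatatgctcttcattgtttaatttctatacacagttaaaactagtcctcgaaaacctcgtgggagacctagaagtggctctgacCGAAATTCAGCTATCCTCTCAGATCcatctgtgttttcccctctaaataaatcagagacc
PLCL2 exon 2, chr3:17009634-17009783, plus strand: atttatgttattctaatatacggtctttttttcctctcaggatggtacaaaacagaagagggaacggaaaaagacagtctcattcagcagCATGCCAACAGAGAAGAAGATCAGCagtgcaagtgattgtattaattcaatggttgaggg

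In these 4 borders C and T made up 60 to 70% of the 40 intron bases, and GC content was 25 to 32.5% in the intron part against 42.7 to 51.8% in the exon part. KMT2A, a histone H3 lysine 4 methyltransferase, supplied a pair of them, with positions 57 bp into exon 27 and 62 bp into exon 3. The position lay 53 bp inside exon 7 of AKAP13, an anchoring protein for protein kinase A, and 60 bp inside exon 2 of PLCL2, a phospholipase C-like protein. Over all 2347 exons the same step in composition was present: GC content was 40.1% in the last 25 intron bases, where T alone made up 43.0%, and 49.1% in the first 25 exon bases. On the donor side it was 50.9% in the last 25 exon bases and 46.4% in the first 25 intron bases.

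Long exons were not richer in nucleosome positions than the introns around them. They held 2068 positions in 2325 kb, or 0.889 per kb (95% Poisson interval 0.851 to 0.929), and the introns 300 to 500 bp away held 940, or 1.00 per kb (0.938 to 1.07). Intervals cover counting error only, and positions closer than a nucleosome's width may not be independent. Here and in the ratios per chromosome, each exon counts by its length, while every exon adds the same length of intron. The longest exons therefore weigh more in the exon value than in the intron value. The 192 exons of 2000 bp or more had 0.852 per kb (0.784 to 0.924) and their introns 0.742 (0.562 to 0.962). How much of the difference comes from this weighting was not tested. Taken chromosome by chromosome, the log2 ratio of exon to intron density was -0.22 ± 0.37 (SD, n = 22 chromosomes). It was lower in exons on 14 of 22 chromosomes (sign-flip permutation test, two-sided, p = 0.00982, adjusted 0.0131 over 8 comparisons). The ratio ranged from -1.13 on chromosome 19 to 0.21 on chromosome 15. Chromosomes are not cultures, so SD and p speak only of the evenness of a difference from chromosome to chromosome in this 1 list. The call did not hold with introns of 1000 bp or more on both sides (-0.14, permutation p = 0.0845), nor without the CpG-rich exons described further on (-0.065, permutation p = 0.428).

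GC content puts the expected density of these exons above that of their introns. Members had 51.1% GC and their introns 43.2%, and the genome-wide relation of position density to the GC content of the surrounding 200 bp gave an expectation of 1.32 per kb in the exons and 1.08 per kb in the introns. Observed density was 0.675 times that expectation in the exons (0.646 to 0.705) and 0.929 times in the introns (0.870 to 0.990). With the GC expectation in place of the number of bases, the log2 ratio of exon to intron was -0.50 ± 0.32, lower in exons on 22 of 22 chromosomes (permutation p = 1e-05, the smallest these draws can give).

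Internal coding exons of 100 to 300 bp, the bulk of internal exons, were denser than their introns. Their 59552 exons had 1.41 positions per kb (1.38 to 1.43) against 0.985 per kb (0.972 to 0.997) in their introns, a log2 ratio of 0.46 ± 0.26 (SD, n = 22), higher in exons on 20 of 22 chromosomes. The ratio of long exons was lower than theirs by 0.68 ± 0.36 on the log2 scale, on 22 of 22 chromosomes (permutation p = 1e-05, adjusted 8e-05). Scaled to GC content, the difference was -0.73 ± 0.38. The introns of the sets were at nearly the same density, so the difference lay in the exons.

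From 120 bp upward, density was lower in each longer class of exons until the members' range began. It was 1.47 per kb (1.43 to 1.51) in exons from 120 to under 160 bp, 1.30 (1.25 to 1.35) from 200 to under 300 bp and 1.14 (1.05 to 1.25) from 300 to under 400 bp. Within the members the 6 length classes lay between 0.802 and 0.977 per kb with no steady order. The ratio of pooled exon to intron density was below 1 in every member class under 2000 bp, lowest at 0.819 from 1200 bp. It was 1.15 in exons of 2000 bp or more. Per chromosome the log2 ratios of these last classes were -0.42 ± 0.78 and 0.06 ± 1.18 (SD, n = 22), and they were not tested. Just outside the limit, 485 exons from 350 to under 400 bp had 0.970 per kb (0.832 to 1.12), and just inside it, 306 exons from 400 to under 450 bp had 0.841 (0.691 to 1.01). These intervals overlap. The lack of an excess over introns was already present below the limit: the 1337 exons from 300 to under 400 bp had an exon to intron log2 ratio of -0.02 ± 0.71 (SD, n = 22), above 0 on 13 of 22 chromosomes, and -0.37 ± 0.54 with the GC expectation. Exons from 200 to under 300 bp were at 0.35 ± 0.42, and at -0.03 ± 0.30 with the GC expectation. Exons under 80 bp had no excess in bases either (-0.02 ± 0.29). Unlike the long exons, they were at 0.25 ± 0.35 with the GC expectation. The lack of an excess in bases is thus not particular to exons of 400 bp or more. Nor is the shortfall against GC content, which exons from 300 to under 400 bp shared. Among members, the exon to intron log2 ratio of the 892 exons of 800 bp or more exceeded that of the 1455 exons under 800 bp by 0.14 ± 0.76 (SD, n = 22), positive on 11 of 22 chromosomes. That difference was within the spread between chromosomes (permutation p = 0.379, adjusted 0.379).

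**Figure D1:**
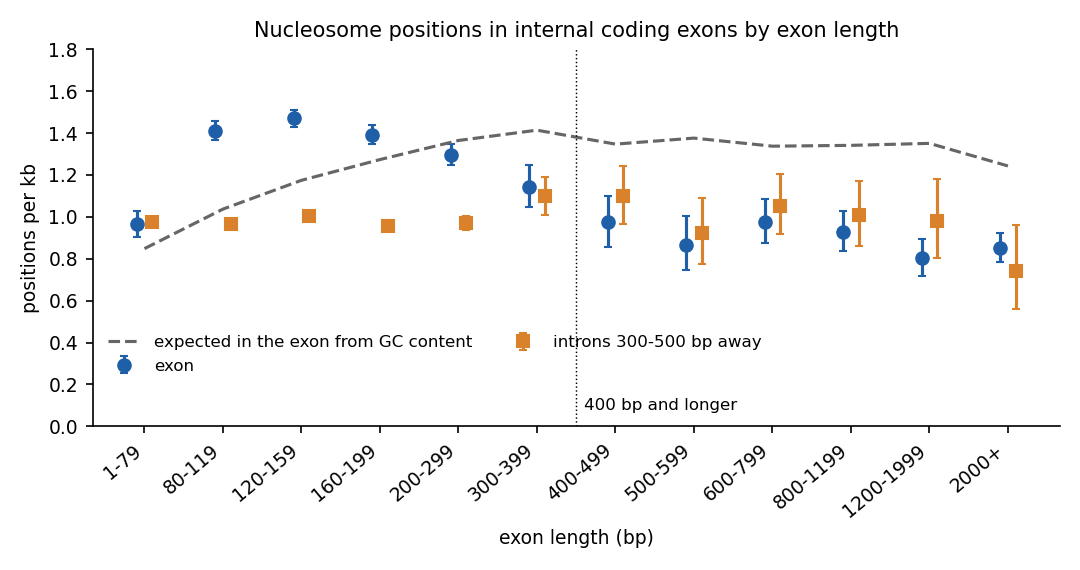
Positions per kb (vertical axis) in internal coding exons by exon length in bp (horizontal axis): circles are exons, squares the introns 300 to 500 bp away, bars 95% Poisson intervals, and the dashed line the density expected in the exons from GC content. Exon density peaks at 1.47 per kb in the class that starts at 120 bp and lies at or below 0.977 per kb in every class of 400 bp and longer, under the dashed line.

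Most long exons carried few positions. No position was found in 1290 of the 2347 exons, 1 in 590, 2 in 246, 3 or 4 in 166, 5 to 9 in 44 and 10 or more in 11. At least 1 was present in 1057 exons, or 45.0% (95% Wilson interval 43.0 to 47.1%). Among all internal coding exons with such introns, most of them much shorter, the share was 16.9%. Consecutive windows of 670 bp, the members' median length, held a position in 41.3% of 4113178 cases along chromosomes 1-22. A closer measure is the exon's own intron: stretches of the same length as the exon, starting 300 bp from the splice site, held a position in 46% of 3571 cases. These came from 2123 exons, of which 928 (43.7%) held a position. The exon had more positions than the mean of its stretches in 599 cases, fewer in 822 and the same number in 702. Many exons had 2 stretches, and a mean of 2 counts is above 0 more often than a single count. That split therefore cannot tell which was denser. Density was 0.910 per kb in these exons and 0.993 per kb in their stretches, a difference that was not tested. The share of long exons with a position was near that of the intron stretches of equal length. The windows along the chromosomes were all of the median length, while members ran from 400 to 14889 bp, so they are a looser background.

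Positions inside the exons were most frequent a short way in from each border. From the acceptor, density was 0.460 per kb (0.303 to 0.670) over exon bases 1 to 25, 0.971 (0.736 to 1.26) over 26 to 50 and 1.67 (1.36 to 2.04) over 51 to 75, where 98 exons, 4.18% of all, had a position. It was back at 1.04 (0.795 to 1.34) over bases 76 to 100. The bin of bases 51 to 75 was the only one of the first 14 bins of 25 bp from the acceptor to exceed its GC expectation, at 1.28 times. From the donor the maximum was lower and broader, with 1.28 per kb (1.01 to 1.60) both at 51 to 75 and at 76 to 100 bp inside. Smoothed with a Gaussian of 10 bp SD, the maxima lay 62 bp from the acceptor and 82 bp from the donor. In exons of 100 to 300 bp they lay at 57 and 75 bp and were higher, at 1.96 and 1.90 per kb against 1.57 and 1.34.

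The outer 150 bp of the long exons had more positions than their inner part. Both ends together held 707 positions at 1.00 per kb (0.931 to 1.08), and the sequence more than 150 bp from both splice sites held 1361 at 0.840 per kb (0.795 to 0.885). The log2 ratio was 0.24 ± 0.33 (SD, n = 22), higher at the ends on 16 of 22 chromosomes (permutation p = 0.00274, adjusted 0.00459). Scaled to GC content, the ratio stayed at 0.24 ± 0.34. The ends themselves did not differ detectably: the acceptor side held 348 positions and the donor side 359, a log2 ratio of -0.13 ± 0.56 (permutation p = 0.295, adjusted 0.337). Even at their ends long exons stayed below the 1.41 per kb of exons of 100 to 300 bp, a comparison that was not tested.

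Outside the exon, density dropped on both sides. In the 100 bp before the acceptor it was 0.571 per kb (0.478 to 0.676) against 0.991 (0.903 to 1.08) in the same introns 300 to 500 bp before it. That log2 ratio was -0.78 ± 0.70 (SD, n = 22), lower on 18 of 22 chromosomes (permutation p = 6e-05, adjusted 0.00024). In the 100 bp after the donor it was 0.758 per kb (0.651 to 0.878) against 1.01 (0.923 to 1.11) further on, a log2 ratio of -0.49 ± 0.65, lower on 19 of 22 (permutation p = 0.00208, adjusted 0.00459). The gap before the acceptor therefore reached from about 100 bp outside to the first 25 bases of the exon. GC content in the 100 bp before the acceptor averaged 41.2% and after the donor 44.8%, close to the 43.2% of the more distant introns, and with the GC expectation the ratios were -0.67 and -0.52.

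**Figure D2:**
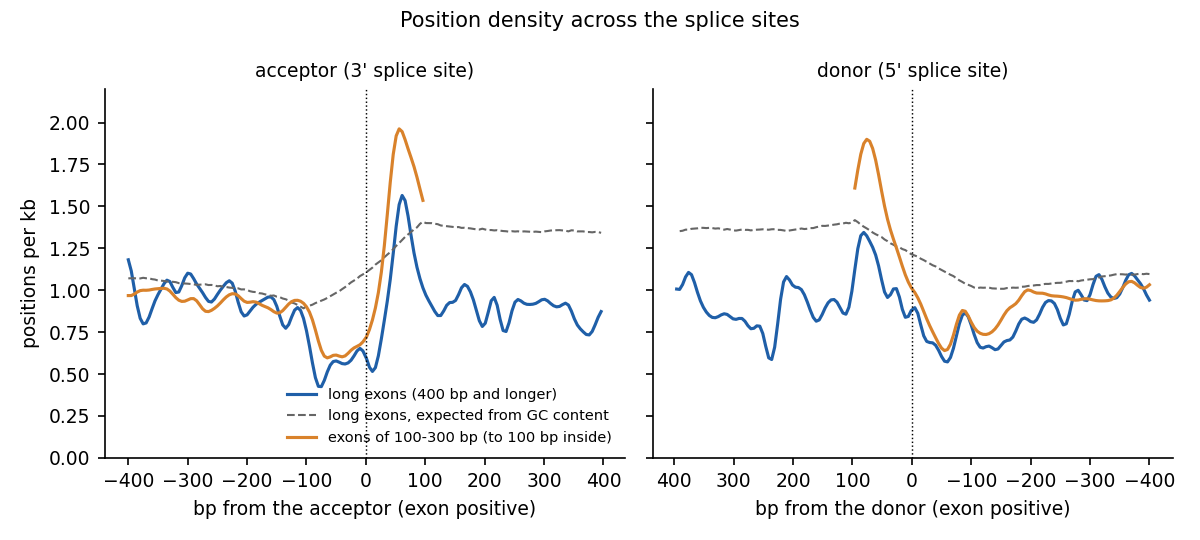
Smoothed position density (positions per kb, vertical axis) against distance in bp from the acceptor (left) and from the donor (right, axis reversed so that transcription runs left to right), with the exon at positive values. Long exons (blue) have maxima 62 bp inside the acceptor and 82 bp inside the donor, lower than those of exons of 100 to 300 bp (orange), and lie under the GC expectation (dashed) over most of the exon.

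Where the first position fell was then read exon by exon. Counting inwards from the acceptor, it lay at a median of 281 bp (quartiles 115 and 530) in the 1057 exons with a position, and from the donor at 296 bp (118 and 526). Intron stretches of the exon's own length had a median of 258 bp (128 and 463). The medians thus say little, and the difference lay close to the border. The first position fell within 1 to 25 bp of the acceptor in 1.15% of exons (95% Wilson interval 0.792 to 1.67%) and within 51 to 75 bp in 3.92% (3.21 to 4.78%). From the edge of an intron stretch the shares were 2.49% (2.03 to 3.06%) and 2.02% (1.60 to 2.53%). For the donor they were 2.00% (1.51 to 2.65%) and 2.90% (2.29 to 3.66%). A nucleosome centred within 72 bp of the border would cover the splice site itself, and the first position lay that close in 6.95% of exons from the acceptor, 6.99% from the donor and 6.66% from the edge of an intron stretch, with overlapping intervals.

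Beyond the first maximum the positions followed no detectable order from the acceptor. In the bins from past 100 to 350 bp inside, density stayed between 0.682 and 1.01 per kb, and their intervals overlapped. From the donor the bin at 201 to 225 bp had 1.12 per kb (0.870 to 1.43) and the next, at 226 to 250 bp, 0.460 (0.303 to 0.670), the lowest of that side.

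Between positions of the same exon, however, there was a preferred distance. Pairs within 20 bp of a distance of 185 bp numbered 223 and pairs 260 to 300 bp apart 61. Divided by the number of base pairs at each distance within the exons, the first were 3.22 times as frequent as the second (95% exact interval 2.42 to 4.35, which treats pairs as independent although they share positions). Pair frequency had maxima at 181 to 200 bp (3.09 per 1000000 base pairs) and at 361 to 380 bp (2.27), with 0.769 in the trough at 261 to 280 bp. The 500 bp of intron on each side gave a ratio of 3.94 (2.71 to 5.89), so the preferred distance was present in both. A further maximum at 21 to 40 bp, at 2.44, consists of calls closer together than a nucleosome's width. After merging positions under 100 bp apart, 222 of 615 neighbours within 600 bp in the same exon, 36.1%, were 160 to 210 bp apart, and the median distance was 223 bp. That share has no intron value beside it. The pair ratio after merging was 3.51 (2.54 to 4.94) in the exons and 5.59 (3.41 to 9.70) in the introns, so the spacing was not particular to long exons.

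**Figure D3:**
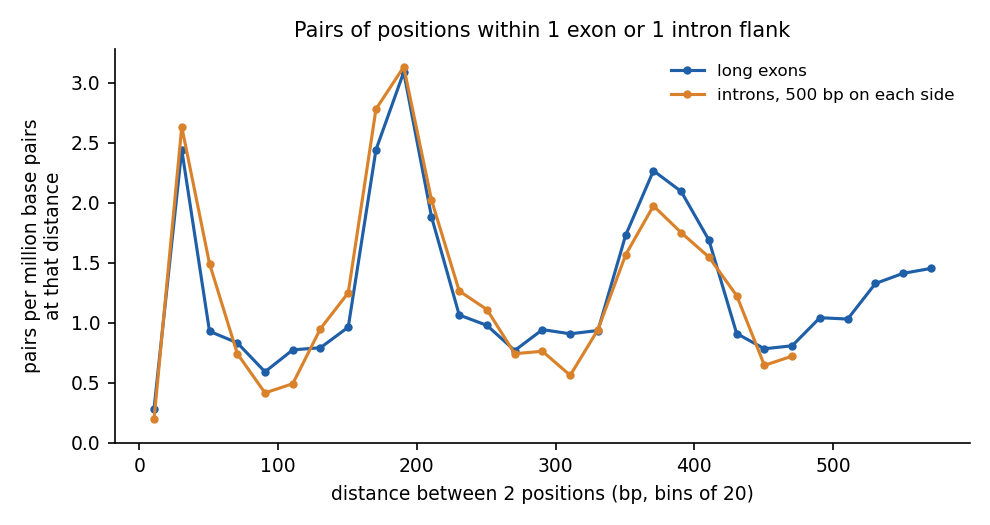
Pairs of positions within the same long exon (blue) or within the same 500 bp of flanking intron (orange), per 1000000 base pairs at that distance (vertical axis), against the distance between them in bp (horizontal axis, bins of 20 bp). Exons have maxima at 181 to 200 and 361 to 380 bp and a separate one at 21 to 40 bp, and the introns follow the same course.

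CpG content separated the long exons more sharply than length did. The ratio of observed CpG dinucleotides to the number given by C and G content is low in most of the genome, where methylated CpG has decayed, and high in CpG islands. In the 382 exons with a ratio under 0.2, density was 1.04 per kb (0.950 to 1.14), above the 0.740 (0.609 to 0.889) of their introns. From 0.2 to 0.4 it was 1.00 (0.947 to 1.06, 1101 exons) and from 0.4 to 0.65 it was 0.725 (0.655 to 0.801, 627 exons). In the 237 exons at 0.65 or above only 38 positions were found, or 0.223 per kb (0.158 to 0.306), while their introns had 1.41 (1.18 to 1.67). These were differences between exons of 1 list, given with counting intervals and no test.

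The same order held against GC content. Relative to the GC expectation, density was 0.939 in the class with least CpG, 0.734 and 0.495 in the next and 0.215 in the class with most. Exons of 100 to 300 bp had 1.48 per kb (1.43 to 1.54) in the lowest class, 1.58 (1.54 to 1.62) and 1.33 (1.29 to 1.37) in the next and 0.991 (0.933 to 1.05) in the highest. Their course was not tested against that of the long exons. In each class the long exons were below them without overlap of the intervals, so the difference between the sets was present within every CpG class. With the 220 members of island-like composition (GC of 55% or more and a CpG ratio over 0.65) left out, the long exons still had a lower exon to intron ratio than the shorter ones, by 0.53 ± 0.37 on the log2 scale (21 of 22 chromosomes, permutation p = 1e-05). Those 220 exons held 32 positions, and 28 of them, 12.7%, had any.

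**Figure D4:**
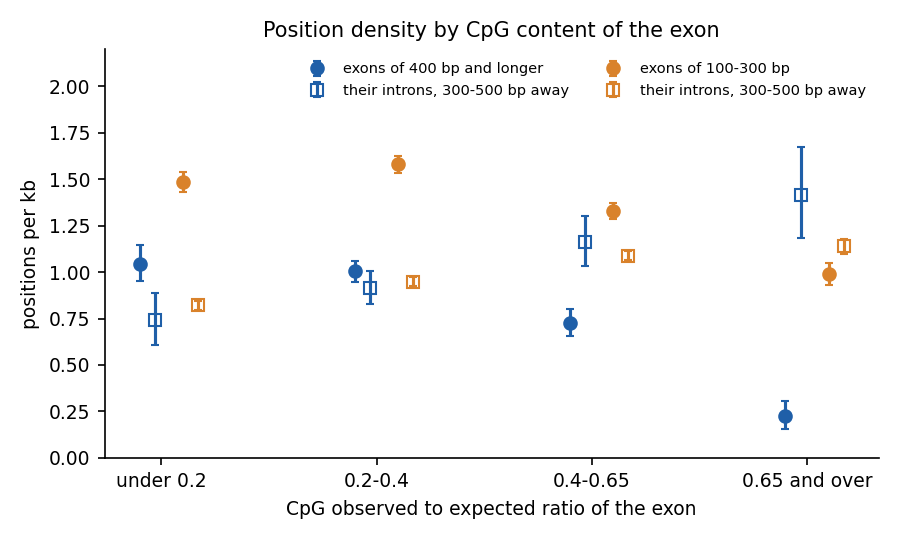
Positions per kb (vertical axis) in classes of the exon's CpG observed to expected ratio (horizontal axis), for exons of 400 bp and longer (blue circles), exons of 100 to 300 bp (orange circles) and the introns 300 to 500 bp from each (open squares), with 95% Poisson intervals. Long exons fall from 1.04 to 0.223 per kb while their introns rise from 0.740 to 1.41 per kb.

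The middle 120 bases of 4 exons illustrate CpG-rich and CpG-poor composition. The first 2 are the longest island-like members, and the others have the lowest CpG ratio among the 10 densest exons. They were picked after the values were seen, and the high counts of the last 2 follow from that choice. A position was held by 54.5% of the 382 exons with a ratio under 0.2. In the 237 exons at 0.65 or above the share was 14.3%. Exon 4 of CRYBG3, with a ratio of 0.157, held none. Runs are in hg38 on the transcribed strand, with CpG dinucleotides in capitals.
SALL3 exon 2, chr18:78993708-78993827, plus strand: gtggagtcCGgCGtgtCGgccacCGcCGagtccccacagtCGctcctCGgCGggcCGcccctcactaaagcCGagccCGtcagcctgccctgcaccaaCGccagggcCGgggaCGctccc
SCAF1 exon 7, chr19:49652227-49652346, plus strand: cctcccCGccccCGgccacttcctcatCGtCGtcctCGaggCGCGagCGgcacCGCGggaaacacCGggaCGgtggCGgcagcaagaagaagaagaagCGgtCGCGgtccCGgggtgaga
SNCAIP exon 10, chr5:122451007-122451126, plus strand: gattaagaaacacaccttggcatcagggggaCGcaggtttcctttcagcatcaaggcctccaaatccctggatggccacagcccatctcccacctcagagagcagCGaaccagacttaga
DMXL1 exon 18, chr5:119149520-119149639, plus strand: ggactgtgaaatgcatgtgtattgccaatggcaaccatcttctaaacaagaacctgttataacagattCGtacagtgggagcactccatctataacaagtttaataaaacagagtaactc

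SALL3, a zinc finger transcription factor, has 349 CpG in its 3389-bp exon 2 and SCAF1, a splicing-related protein with an arginine and serine rich region, 258 in its 2838-bp exon 7. Neither exon held a position, where their GC content gave an expectation of 2.85 and 2.14. The windows printed hold 14 and 17 CpG. In exon 10 of SNCAIP, the alpha-synuclein binding protein synphilin-1, the window has 2 CpG, and the exon of 1069 bp held 5 positions. In exon 18 of DMXL1, which takes part in the assembly of the vacuolar proton pump, it has 1 CpG, and the exon of 1683 bp held 8 positions against 1.66 expected from GC content. The next island-like exons by length, in CHADL, CRACDL and TNRC18, were empty as well, and exon 3 of CRYBG1 held 1 position.

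Positions in the long exons lay on somewhat more GC-rich sequence. The 150 bp around them had a GC content 1.49 ± 2.01 percentage points (SD, n = 22) above the average 150-bp window of the same exons, on 17 of 22 chromosomes (permutation p = 0.00287, adjusted 0.00459). The exons of a chromosome were pooled for this value, so it mixes differences between exons with those within an exon. The size of the window decided the result: with 200 bp the difference was 0.048 points (permutation p = 0.916). Without the island-like exons it was 2.53 ± 1.99 points. Within the exon, the surroundings of the 1361 positions of the inner parts were set against the average of their own exon, 50.3% GC. By distance from the position, GC content was 53.6% within 24 bp, 53.1% at 25 to 49 bp and 47.3% at 75 to 99 bp. The first was above the exon's average on 22 of 22 chromosomes, by 3.29 ± 0.94 points, and the last below it on 22 of 22, by a mean difference of -3.34 ± 1.50. MNase is known to cut preferentially at A and T, and its part in this pattern was not tested.

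The longest exons show how unevenly positions were spread. The longest, exon 2 of MUC12, a membrane-bound mucin (chromosome 7, 100990631 to 101005519, plus strand), has 14889 bp and held 22 positions. In it, 74.9% of all 32-base words occur more than once in the genome, copies within the exon itself included. Reads may not have been placed with certainty there, so its count is uncertain. Exon 2 of CMYA5, a muscle protein (chromosome 5, 79728915 to 79739403), held 9 positions in 10489 bp against 10.8 expected from GC content. FSIP2, a protein of the sperm tail, has a pair of giant exons on chromosome 2: exon 17, with 9437 bp, held 2 positions and exon 16, with 8884 bp, held 4, where 2.81 and 3.22 were expected at GC contents of 33.8 and 34.8%.

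Among the other exons of the longest 10, exon 9 of XIRP2, an actin-binding muscle protein, held 8 positions in 9379 bp, and exon 9 of UNC13B, which primes synaptic vesicles, 10 in 8247 bp. All 10 in UNC13B lay in its first 5316 bp. Exon 11 of SPEN, a transcriptional corepressor, held 5 in 8176 bp, all between its bases 4781 and 5566. Exon 37 of ANK3, the giant exon of the neuronal scaffold ankyrin-G, held 7 in 7812 bp against 10.1 expected, and exon 8 of TEX15, a germ cell protein, 5 in 7313 bp. IGFN1, an immunoglobulin-domain protein of muscle, held 17 in the 7539 bp of exon 12, of which 20.2% of the 32-base words are repeated.

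Some long exons carried runs of evenly placed positions. After merging calls under 100 bp apart, 74 exons had 4 or more positions, and 7 of these held a run of at least 4 whose neighbours were all 160 to 210 bp apart. That was 0.298% of all members (95% Wilson interval 0.145 to 0.614%), beside 0.084% of intron stretches of the exon's own length (3 of 3571, interval 0.0286 to 0.247%). Among members that had such a stretch it was 4 of 2123, or 0.188% (0.0733 to 0.483%), and these intervals overlap. In exon 25 of MYO9A, an unconventional myosin (chromosome 15, 71897461 to 71899032, minus strand), positions lay 67, 262, 454 and 648 bp from the acceptor, and the next at 1456 bp. In exon 5 of AKAP3, an anchoring protein of the sperm sheath, the run was at 1686, 1868, 2028 and 2206 bp of 2310, and the others lay 58 and 524 bp from the acceptor. Exon 8 of PRUNE2 held 13 merged positions in 6598 bp, with a run of 5 at 5697, 5879, 6041, 6232 and 6409 bp. Of the 7 runs, that of MYO9A began 67 bp from the acceptor and the others more than 500 bp inside.

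Exon 12 of ACAN, which encodes the glycosaminoglycan attachment region of the cartilage proteoglycan aggrecan, also had a run of 5, at 2612, 2776, 2973, 3180 and 3367 bp. It held 17 positions in 4566 bp, and 30.8% of its 32-base words are repeated, which leaves the placement uncertain. The surrounding megabase was dense as well, at 2.72 positions per kb. Runs of 4 were also present in PTPRZ1, a receptor tyrosine phosphatase (exon 12, at 1518, 1705, 1878 and 2039 bp), in IGFN1 (exon 12, at 1887, 2068, 2250 and 2448 bp) and in TMEM108 (exon 4, at 531, 693, 875 and 1083 bp).

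**Figure D5:**
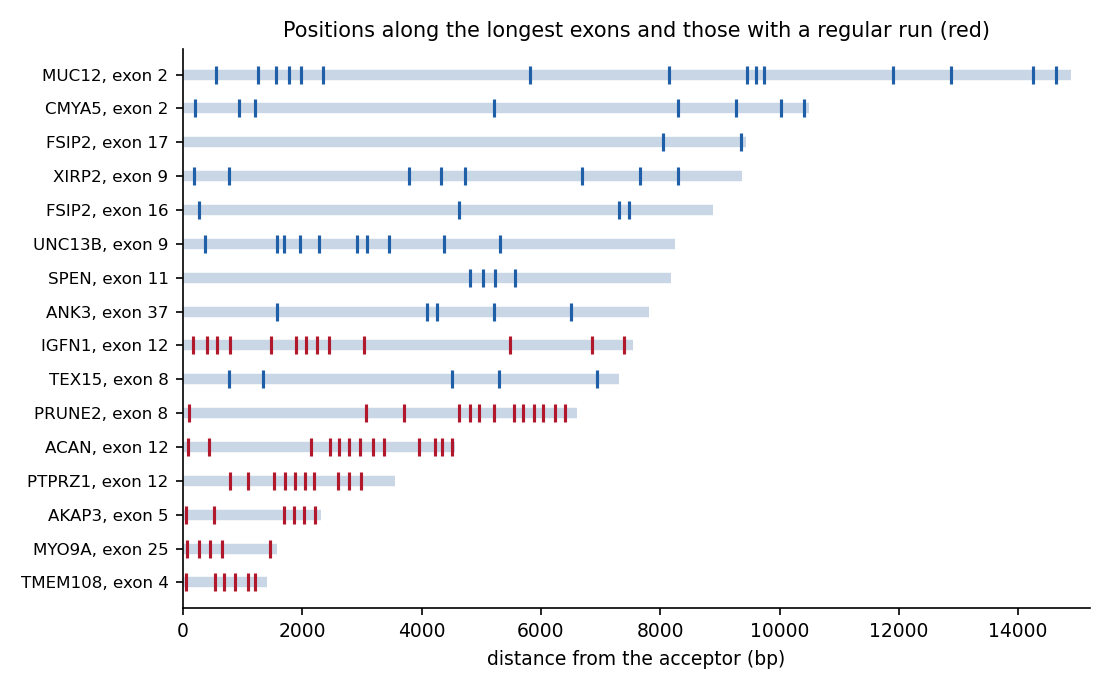
Merged positions (ticks) along the 10 longest member exons and the 7 exons with a regular run of 4 or more (red ticks; IGFN1 is in both sets), against distance in bp from the acceptor (horizontal axis). Each bar is an exon drawn to scale; MUC12 carries 15 merged positions over 14889 bp, and PRUNE2 has 10 of its 13 in the last 2000 bp.

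The most densely occupied exons were shorter. Exon 5 of NR5A2, a nuclear receptor (chromosome 1, 200048172 to 200048818, plus strand), held 4 positions in 647 bp, at 40, 157, 324 and 532 bp from the acceptor, or 6.18 per kb. Exon 9 of PEAK1, a cytoskeletal pseudokinase, held 4 in 746 bp, at 58, 245, 435 and 657 bp. The remaining exons of the densest 10 lay in RAB11FIP1, FBXO10, LAD1, SNCAIP, TMEM108, DMXL1, C10orf90 and ALMS1, with 3.44 to 4.95 merged positions per kb. They were chosen for their density, so these values are a description, and a count of 4 has a wide counting error.

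At the other end, 224 of the 615 exons of 1000 bp or more held no position, or 36.4% (32.7 to 40.3%). Intron stretches of the same lengths were empty in 33.9% of 716 cases (30.6 to 37.5%), so the share was near that background. The longest of them were exon 11 of SRRM2, a protein of nuclear speckles and the spliceosome, with 6701 bp and 11.9 positions expected from GC content, exon 4 of CRYBG3 with 6196 bp and 5.10 expected, and exon 4 of HIVEP1, a zinc finger transcription factor, with 5981 bp and 8.25 expected. Next came exon 20 of RANBP2, a nuclear pore protein, of which 41.6% of the 32-base words are repeated, and exon 10 of KNL1, a kinetochore scaffold. The megabase around the KNL1 exon had only 0.118 positions per kb. Over 10% repeated words were found in 23 of the 224 empty exons and in 49 of the 615. The median density of the surrounding megabase was 0.969 per kb for the empty exons and 1.01 per kb for those with a position.

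Genes with long exons were also read by function. Of 21 genes of genome maintenance, 14 had a member exon, 19 in all, and these held 12 positions in 29.3 kb, or 0.410 per kb (0.212 to 0.716). That was 0.570 times the GC expectation, where all members were at 0.675 times, and the median density of the surrounding megabase was 0.811 per kb. At least 1 position was present in 7 of the 19, with a median length of 950 bp. For the lists, the share with a position can be set beside 45.0% of all members and 52.1% of members from 800 to under 1200 bp. Exon 11 of BRCA2, a protein of homologous recombination, held 3 in 4932 bp (1.39 expected from GC content), exon 13 of REV3L, a translesion polymerase subunit, 2 in 4162 bp, exon 16 of POLQ, the polymerase of microhomology-mediated end joining, 1 in 3107 bp, and exon 4 of MSH6, a mismatch recognition protein, 1 in 2545 bp. Mitotic and centrosomal genes had 20 exons with 24 positions, 0.682 per kb (0.437 to 1.01) and 0.651 times the GC expectation, 11 of them with a position at a median length of 729 bp. Exon 13 of MKI67, the proliferation antigen Ki-67, held 8 in 6845 bp, while exon 18 of ASPM and exon 12 of CENPF, at 35.8 and 39.4% GC, held none.

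The 31 exons of chromatin regulators held 37 positions, 0.838 per kb (0.590 to 1.15) and 0.607 times the GC expectation, and 20 had at least 1 at a median length of 917 bp. Exon 27 of KMT2A held 7 in 4249 bp, exon 3 of SETD2, the histone H3 lysine 36 methyltransferase, 2 in 4367 bp, and exon 11 of the coactivator NCOA6 1 in 2979 bp. The 24 exons of cytoskeletal linkers held 34, or 0.666 per kb (0.461 to 0.930) and 0.509 times the GC expectation, 11 with a position at a median length of 1149 bp. Among these, exon 38 of ANK2 (ankyrin-B) held 6 in 6255 bp, exon 5 of the microtubule protein MAP1B 2 in 6502 bp and exon 37 of the spectraplakin MACF1 1 in 5451 bp.

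Sarcomere genes gave 5 exons with 17 positions, of which exon 48 of TTN (titin) held 9 in 2781 bp and XIRP2 the other 8. Exon 46 of TTN held none. Extracellular matrix and mucin genes gave 9 exons with 33 positions, 1.88 per kb (1.30 to 2.65) and 1.28 times the GC expectation, 8 of them with a position at a median length of 1379 bp; 17 of the 33 were those of ACAN. Exon 8 of VCAN (versican) held 6 in 5262 bp, exon 7 of the same gene 3 in 2961 bp, and exon 3 of TNC (tenascin-C) 3 in 1410 bp. The median density per exon over all members was 0, and no list was tested against the rest. Intron density was below exon density in every list except genome maintenance, where it was 0.658 per kb (0.214 to 1.54). It was 0.242 (0.0499 to 0.707) for chromatin regulators and 0.313 (0.0644 to 0.913) for cytoskeletal linkers. Mitotic genes had 0.625 (0.203 to 1.46), and matrix and mucin genes 0.833 (0.172 to 2.44). Sarcomere introns held none. These values rest on few positions, intervals overlap in every list, and no difference was tested.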

How the data were processed

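The 2 samples were MNase-seq libraries of ARPE-19 cells. The authors deposited 1 list of 2634347 rows, each a single base with no score; the submitters' processing notes name Bowtie2 and hg38. The caller, its thresholds, the pooling of batches and the read depth are not given in the sources used here. Chromosomes 1-22 carried 2558490 distinct positions, 0.928 per kb of determined sequence; none lay on an undetermined base. Exons came from GENCODE 44, and exons with identical coordinates were counted once. Densities were compared per chromosome as log2 ratios with 0.5 positions added to each count, and tested with 100000 sign flips and Benjamini-Hochberg adjustment over 8 comparisons. The GC expectation used 2% bins of the 200 bp around each base. Named exons were the 10 longest, the 10 densest with 4 or more merged positions, the 5 longest empty ones, those with a regular run, and up to 4 per gene list. Other exons were chosen after their values were seen, as were the CpG classes, the repeat measure, the intron backgrounds of runs and empty exons and the GC content by distance. The members, lists and comparisons were chosen with earlier results of these data known. The test was checked on simulated data. Python 3.11.15, numpy 2.4.6, scipy 1.17.1, pandas 2.3.3, numba 0.67.0 and matplotlib 3.10.9 were used.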

Additional observations from a re-analysis of the deposited data

How the results depend on the processing

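Of 108 alternative values, 105 left the call as it was, judged at an unadjusted p of 0.05 where there was a test, 3 had the same sign but no longer passed, and none reversed. The 3 were the exon to intron log2 ratio with introns of 1000 bp or more (-0.14, permutation p = 0.0845), the same ratio without exons of island-like composition (-0.065, permutation p = 0.428), and the GC content around positions with a 200-bp window (0.048 points, permutation p = 0.916). The cause was not tested. Leaving out chromosome 15 or chromosome 9, merging close positions, taking 1 exon per gene and leaving out repeated exons changed no call among the 8 comparisons. Settings on island-like composition and repeats were added after the data were seen. No paired analysis was possible because the list does not tell the batches apart. Read depth is unknown, so an empty exon cannot be told from an exon with too few reads.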

Other observations

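By GC content, long exons under 40% GC had 0.537 positions per kb (95% Poisson interval 0.464 to 0.618) and their introns 0.603 (0.468 to 0.764). Those of 40 to 45% GC had 0.933 positions per kb (0.844 to 1.03) where their introns had 0.483 (0.380 to 0.606), and those of 45 to 50% GC had 1.19 (1.09 to 1.31) against 0.783 (0.649 to 0.937). From 50 to 55% GC the values were 1.08 (0.969 to 1.20) and 0.851 (0.701 to 1.02), and from 55 to 60% GC 1.18 (1.06 to 1.32) and 1.27 (1.08 to 1.49). The 661 exons of 60% GC or more had 0.610 (0.546 to 0.679) against 1.55 (1.40 to 1.71) in their introns. The exon had the higher value in the 3 classes from 40 to 55% GC and the intron in the others; these differences were not tested. The 322 members that are the second exon of their transcript had 0.851 positions per kb (0.746 to 0.966) and the 2025 later ones 0.895 (0.854 to 0.937), with overlapping intervals. In the 155 members with over 10% repeated 32-base words, density was 0.829 per kb (0.703 to 0.970), and 0.895 (0.855 to 0.936) in the other 2192.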
